A study of Danio rerio with 36 samples.

Results

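The change of the zebrafish larva from 9 to 14 days of age was described from 6 of the 36 libraries of the series, 3 of 14 day wild-type larvae and 3 of 9 day wild-type larvae. The libraries were taken by genotype and age alone, and all genes that passed a filter on low counts were described, 22399 of the 30490 in the gene table. The series measured polyA RNA of wild-type and kctd15 mutant zebrafish at 6 stages (1 somite, 25 hours after fertilization, 2 day, 5 day, 9 day and 14 day), with 3 biological replicates in each of 12 groups. Both groups used here are wild-type larvae, for which the labels give larva as the tissue, raised at one temperature and fed under the rules of the animal facility, and the 14 day group of kctd15 mutants and the 9 day group of kctd15 mutants are used only where they are named. The labels give no strain, no number of animals per library, no sex and no hour of collection. They do not say whether the replicates are separate clutches, so p-values measure the spread between these samples only.

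Fish larvae replace parts of their first body while they grow. Red cells change from embryonic and larval to adult globin chains, cartilage templates are joined by mineralizing bone, and lymphocytes are built in the thymus by recombination of receptor genes with the RAG1 and RAG2 proteins. Both ages fall before the end of metamorphosis, while the larval fin fold is still being replaced by fins with rays.

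The 6 libraries held 8868967 to 11962139 estimated counts and between 26633 and 27165 genes with a count. At 14 day 26.2 to 27.4% of the counts fell on the 50 most abundant genes, against 19.4 to 21.7% at 9 day. Levels are given in CPM, the counts of a gene scaled to the total of its library after that total is multiplied by a TMM factor, which corrects for differences in composition. Across genes, correlations of log2 CPM ran from 0.932 to 0.943 between the ages and from 0.97 to 0.978 within an age. The leading principal component, with 56.7% of the variance, separated the ages. The next one, with 14.3%, set apart replicate 1 of 14 day and replicate 1 of 9 day at its opposite ends. The 10 markers of tissues expected in a whole larva, from liver fabp10a to lens cryaa, each reached at least 5.72 CPM in every library. The genes kctd15a and kctd15b (the labels do not say which of them the mutants lack) averaged 14.8 and 7.12 CPM at 14 day and 14.8 and 6.9 CPM at 9 day in wild type, and neither passed the test (edgeR adjusted p = 0.988 and 0.902).

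Over all genes, 3820 of 22399 (17.1%) passed the quasi-likelihood test of edgeR at an adjusted p under 0.05. Of these, 2130 (9.51% of those tested) were higher and 1690 (7.54%) lower at 14 day, and 869 and 517 of them differed by 2-fold or more. The groups of 3 did not overlap for 35.2% of all genes tested. These shares are the background for every gene group below, and the median log2 fold change of all genes was 0. Scaled by library size only, with no correction for the few genes that take more of the 14 day counts, that median was -0.22 and the split was 1367 higher and 4617 lower. Genes named below for the largest changes were required to have groups that do not overlap, and many others were named by smallest p. For such genes a lack of overlap describes the values and adds no support to the test.

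Adult globin genes, which code for the chains of adult hemoglobin, were close to absent at 9 day and abundant at 14 day. The alpha globin gene hbaa1 had 719, 165 and 530 CPM at 14 day, against 0.0953, 0.181 and 0.384 CPM at 9 day. The beta globin gene ba1 had 501, 296 and 578 CPM at 14 day, against 0.191, 0 and 0.672 CPM at 9 day, and its close relative ba1l had 225, 121 and 250 CPM, against 0.191, 0 and 0.192 CPM. Replicate 2 was the lowest of the 14 day libraries for all 3 genes, yet every 14 day value lay far above every 9 day value. In bulk RNA of larvae, fewer cells of a type and less RNA per cell cannot be told apart, and this holds for every group of genes below. The tissue that the RNA of a gene came from was not measured either, for members of a list that rose and for those that fell. The log2 fold changes were 10.99 ± 1.01 for hbaa1, 10.61 ± 0.56 for ba1 and 10.50 ± 0.54 for ba1l (± SE, edgeR adjusted p = 0.00229, 4.75e-05 and 3.49e-05). The other adult genes, si:ch211-5k11.6 (an alpha globin also named hbaa2) and zgc:92880 (a beta globin also named hbba2), stayed at or under 0.452 CPM in all 6 libraries and were not tested.

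**Figure D1:**
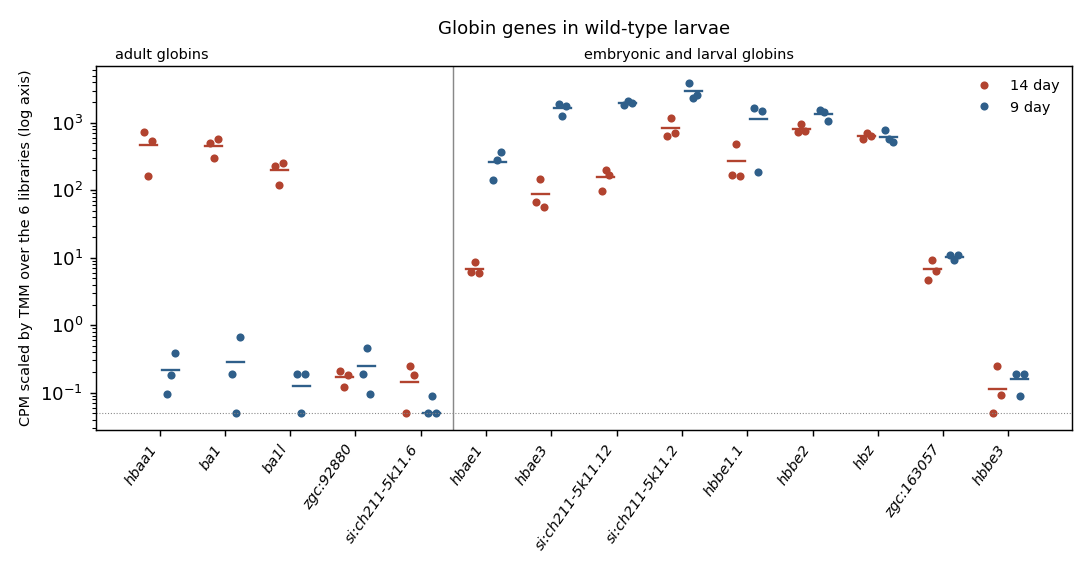
Level of each globin gene in each library, in CPM on a log axis, for 14 day (red, left of each pair) and 9 day (blue, right), with bars at the group means; the dotted line marks where a level of 0 is drawn. The adult genes hbaa1, ba1 and ba1l lie near the bottom at 9 day and between 121 and 719 CPM at 14 day.

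Most embryonic and larval globin genes fell, by amounts that differed from gene to gene. The embryonic alpha gene hbae3 had 66.1, 145 and 55.9 CPM at 14 day, against 1880, 1280 and 1770 CPM at 9 day. The embryonic beta gene si:ch211-5k11.12 (hbbe1.3) had 96.1, 201 and 170 CPM at 14 day, against 1850, 2090 and 1960 CPM at 9 day. Within each gene the groups stayed far apart, and the log2 fold changes were -4.21 ± 0.42 for hbae3 and -3.66 ± 0.26 for si:ch211-5k11.12 (edgeR adjusted p = 0.00103 and 1.39e-05). The embryonic alpha gene hbae1 fell by 5.26 ± 0.45 on the log2 scale, and si:ch211-5k11.2, which the reference pairs with hbae1.2 and hbae1.3, by 1.82 ± 0.27.

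A separate minor locus holds other globins. In the RefSeq gene order hbbe2, hbbe3, hbae4 and hbae5 lie next to each other, away from the cluster that holds the adult genes and the other embryonic genes. The larval beta gene hbbe2 had 720, 947 and 762 CPM at 14 day, against 1560, 1460 and 1080 CPM at 9 day, with a log2 fold change of -0.76 ± 0.17 (edgeR adjusted p = 0.0107, and 0.0614 with all 36 libraries in the fit). The alpha gene hbz (a name that RefSeq lists for hbae5 and also for hbae4) had 579, 695 and 631 CPM at 14 day, against 774, 584 and 519 CPM at 9 day. Its groups overlapped and its log2 fold change was 0.02 ± 0.16 (edgeR adjusted p = 0.949). The gene zgc:163057 (hbae4) had a log2 fold change of -0.60 ± 0.23 and did not pass (edgeR adjusted p = 0.0933, but 0.0287 without replicate 2 of 14 day and 0.0167 with library size only). Of the 8 embryonic and larval genes tested, 5 fell (against 7.54% of all genes) and none rose, with a median of -1.93.

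The gene hbbe1.1 showed a split of its own. It had 170, 487 and 164 CPM at 14 day, against 1670, 187 and 1510 CPM at 9 day. Replicate 2 of 9 day lay within the 14 day range, and the gene did not pass (log2 -2.04 ± 1.01, edgeR adjusted p = 0.265). It has near-identical neighbours, between which the authors' estimates can share reads, and the same caution holds for ba1 and ba1l.

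Adult globins made up 38.9, 13.7 and 35.1% of all globin counts at 14 day, against 0.00565, 0.00876 and 0.0137% at 9 day. The means were 29.3 ± 13.6% at 14 day and 0.00936 ± 0.00404% at 9 day (SD, n = 3 each, two-sided exact permutation p = 0.1, the smallest that 3 against 3 allow). Replicate 2 of 14 day had the lowest adult share, and it also had the highest embryonic and larval total of its group. Without it the 14 day mean was 37%. Among alpha globins the adult share was 35.9, 7.54 and 27.3% at 14 day, and among beta globins it was 42.4, 20.3 and 43%. In kctd15 mutants the adult share was 5.59, 9.91 and 1.42% at 14 day and at most 0.00238% at 9 day. The difference between the genotypes in this share was not tested.

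All globins together were lower at 14 day. Their sum was 3720, 4240 and 3870 CPM at 14 day, against 11800, 8250 and 9840 CPM at 9 day, with no overlap. Among 28 genes of the red cell and of heme synthesis, 9 fell and 1 rose, with a median of -0.39, and 19 fell with library size only. The anion exchanger gene slc4a1a (band 3 of the red cell membrane) had 95.7, 86.9 and 95.9 CPM at 14 day, against 315, 250 and 340 CPM at 9 day (log2 -1.70 ± 0.14, edgeR adjusted p = 1.21e-05). The heme enzymes urod, cpox and alas2 fell by 0.96, 0.78 and 0.77 on the log2 scale (alas2 did not pass with all 36 libraries in the fit, edgeR adjusted p = 0.0756). The membrane skeleton gene ank1a rose by 0.67.

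Over the 6 wild-type stages the globins came up at different times, and the plot of levels by stage shows their sums. The mean of hbz was 1.1 CPM at 5 day, 629 at 9 day and 628 at 14 day, and that of hbbe2 was 65.2, 1380 and 801 CPM. The mean of the embryonic gene hbae3 was 247 CPM at 25 hpf, 536 CPM at 2 day, 1650 CPM at 9 day and 88.1 CPM at 14 day. The rise to 9 day was not steady for the globins together. Their sum was 3240, 634 and 2640 CPM at 2 day and 1910, 1110 and 1480 CPM at 5 day. The adult gene ba1 was at 0 counts in all libraries from 1 somite to 5 day. Levels by stage are scaled over all 36 libraries, so they differ slightly from those above.

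**Figure D2:**
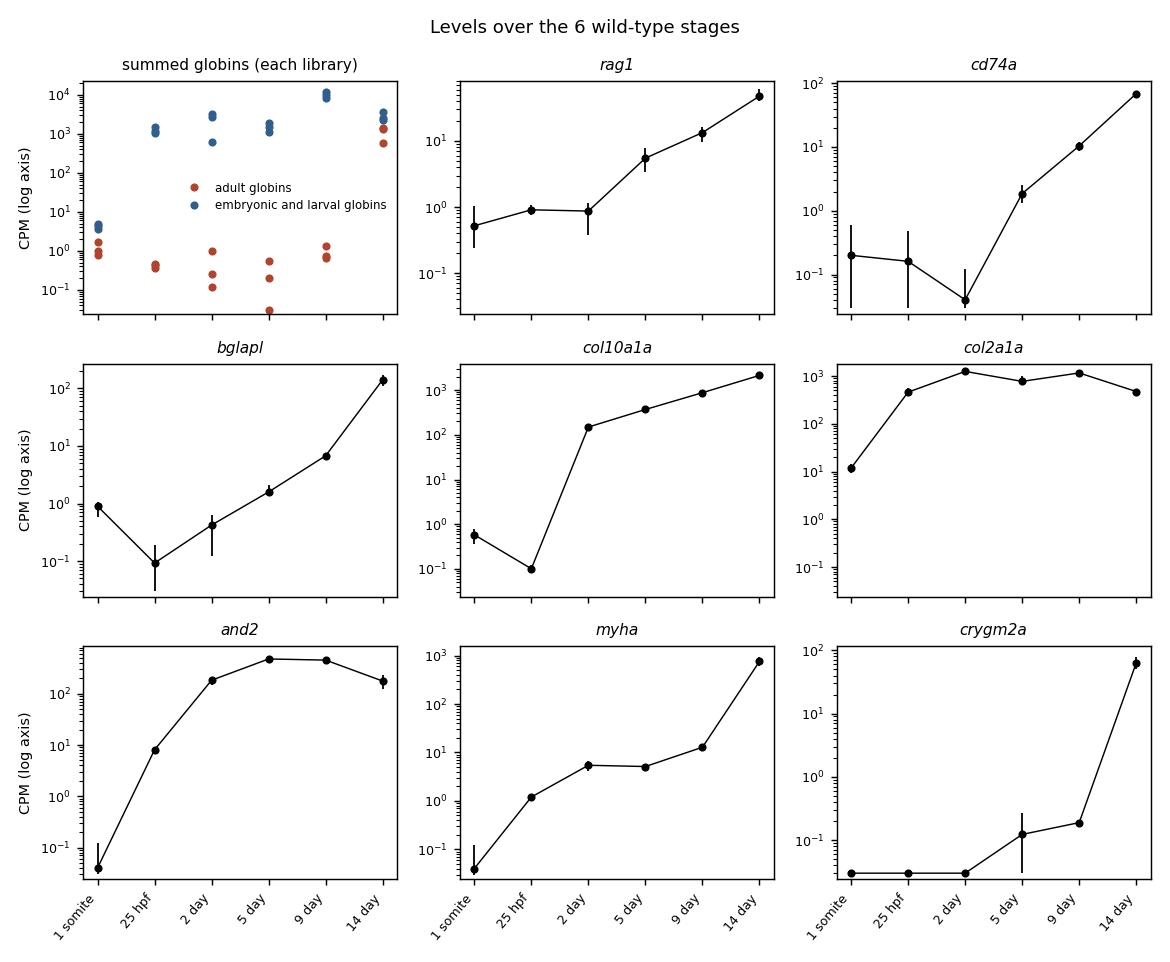
Levels over the 6 wild-type stages in CPM on log axes. The upper left panel gives the sum of adult globins (red) and of embryonic and larval globins (blue) in each library, the other panels the mean of 3 libraries with lines from the lowest to the highest, and 0 is drawn at the lower end. The adult globins, bglapl, myha and crygm2a stand far above all earlier stages at 14 day, while col2a1a and and2 are lower at 14 day than at 9 day.

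Bone genes rose as a group. Of 37 genes of bone matrix and osteoblasts, 25 rose and 3 fell, with a median of 0.89, and 1 fell without replicate 2 of 14 day or replicate 2 or 3 of 9 day. The osteocalcin-like gene bglapl had 114, 140 and 177 CPM at 14 day, against 6.96, 6.05 and 7.2 CPM at 9 day. The lowest 14 day library stood far above the highest 9 day library, and the log2 fold change was 4.41 ± 0.18 (edgeR adjusted p = 1.51e-07). Osteocalcin itself, bglap, a vitamin K dependent protein of mineralized matrix, had 131 counts over the 14 day group and 3 over the 9 day group, a 49-fold ratio with a 95% counting interval of 16.4 to 241.

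Other matrix genes of bone rose with it. Osteomodulin, omd, a proteoglycan of mineralized tissue, had 55.5, 69.2 and 82.6 CPM at 14 day, against 3.53, 4.79 and 3.74 CPM at 9 day (log2 4.10 ± 0.19, edgeR adjusted p = 2.02e-07). The collagen X gene col10a1b, made by fish osteoblasts and by hypertrophic cartilage cells, had 146, 111 and 118 CPM at 14 day, against 10.9, 9.76 and 13.7 CPM at 9 day (3.45 ± 0.16, edgeR adjusted p = 2.04e-07). Osteopontin, spp1, an acidic phosphoprotein of bone, had 196, 208 and 204 CPM at 14 day, against 27, 33.6 and 35.1 CPM at 9 day (2.66 ± 0.13, edgeR adjusted p = 2.46e-07). In all 3 genes every 14 day library stood several times above every 9 day library. The inhibitor of calcification mgp rose by 4.84 ± 0.37 on the log2 scale, with no 9 day library above 0.452 CPM.

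Smaller rises were found in several abundant genes. The other collagen X gene, col10a1a, had 1960, 2360 and 2150 CPM at 14 day, against 966, 854 and 790 CPM at 9 day (log2 1.31 ± 0.15). Among collagen I genes, col1a2 rose by 1.28 ± 0.17 and col1a1b by 1.06 ± 0.19. The phosphatase gene entpd5a, needed for mineralization in zebrafish, rose by 1.61 ± 0.14. The osteoblast factor sp7 had 7.74, 8.39 and 5.12 CPM at 14 day, against 4.19, 5.24 and 3.74 CPM at 9 day (log2 0.68 ± 0.24, edgeR adjusted p = 0.0759), and its groups overlapped through replicate 3 of 14 day, without which it passed (edgeR adjusted p = 0.0355, and 0.0177 with all 36 libraries in the fit). The factor runx2b had a log2 fold change of 0.56 ± 0.25 (edgeR adjusted p = 0.149). The homeobox gene msx2b fell by 0.97 ± 0.19 on the log2 scale.

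One member of the bone list, serpinh1b, is also a heat shock gene, the chaperone of collagen in the endoplasmic reticulum. It had 495, 497 and 431 CPM at 14 day, against 72.2, 94.2 and 97.7 CPM at 9 day (log2 2.43 ± 0.15), and it is counted in both lists. In kctd15 mutants the same step gave -0.13 (edgeR adjusted p = 0.478), and the difference between the genotypes passed (edgeR adjusted p = 4.97e-06).

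Among 17 osteoclast genes, 6 rose and none fell, with a median of 0.44. The number that rose was 4 or 5 whichever library was left out, and 4 with library size only. The number that fell was 2 without replicate 1 of 14 day or with library size only, and 1 without replicate 2 of 9 day. Collagenase 3, mmp13b, had 32.9, 29 and 38.3 CPM at 14 day, against 6, 7.5 and 7.87 CPM at 9 day (log2 2.23 ± 0.16, edgeR adjusted p = 5.41e-06). The tartrate-resistant acid phosphatase gene acp5a, a classical osteoclast marker, had 5.73, 10.7 and 11.1 CPM at 14 day, against 2, 1.72 and 2.02 CPM at 9 day (2.26 ± 0.29, edgeR adjusted p = 0.000276). Both genes were higher in every 14 day library. The receptor of the osteoclast factor RANKL, tnfrsf11a, rose by 0.97 ± 0.15. Cathepsin K, ctsk, overlapped between the ages (log2 0.38 ± 0.21, edgeR adjusted p = 0.262), and passed as higher without replicate 1 of 9 day (0.69, edgeR adjusted p = 0.00843).

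Cartilage genes went the other way. Of 38 tested, 17 fell and 4 rose, with a median of -0.37, and 11 fell without replicate 2 of 9 day. The cartilage collagen gene col2a1a had 508, 501 and 429 CPM at 14 day, against 1140, 1310 and 1020 CPM at 9 day (log2 -1.27 ± 0.15, edgeR adjusted p = 0.00014). Matrilin 4, matn4, an adaptor of the matrix, had 100, 118 and 114 CPM at 14 day, against 348, 318 and 307 CPM at 9 day (-1.55 ± 0.12, edgeR adjusted p = 1.03e-05). Both genes had every 14 day library far below every 9 day library. The collagen IX genes col9a1a, col9a2 and col9a3 fell by 1.37, 1.32 and 1.11 on the log2 scale. Aggrecan, acana, did not pass (-0.24 ± 0.17, edgeR adjusted p = 0.37), nor did the paralog collagen gene col2a1b (0.12 ± 0.15, edgeR adjusted p = 0.641).

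Exceptions in the cartilage list included ucmaa, whose product is a Gla protein of cartilage. It had 50.7, 74.5 and 76.1 CPM at 14 day, against 15.3, 15.6 and 12.3 CPM at 9 day (log2 2.22 ± 0.17, edgeR adjusted p = 1.21e-05). The secreted binding protein of fibroblast growth factors fgfbp2a rose by 1.82 ± 0.16. The collagen XI gene col11a1b rose by 0.82 ± 0.12.

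In the list of tooth, scale and fin ray matrix, 5 of 13 rose and 4 fell. The rises included scpp1, scpp5 and scpp7, which code for secreted calcium-binding phosphoproteins of mineralized tissue, with log2 fold changes of 1.56 ± 0.16, 1.13 ± 0.14 and 2.43 ± 0.31. All 4 falls were the actinodins and1, and2, and3 and and4, which code for proteins of the stiff fibers of the fin fold. The gene and2 had 127, 232 and 177 CPM at 14 day, against 510, 433 and 412 CPM at 9 day (-1.34 ± 0.20, edgeR adjusted p = 0.00141). The groups did not overlap, with replicate 1 the lowest of 14 day and the highest of 9 day. The list held both directions, with a median of 0.08, and of -0.12 with library size only.

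Of 19 tendon and ligament genes, 10 rose and 1 fell, with a median of 0.57. None fell without any single library other than replicate 1 of 9 day, with DESeq2 or with all 36 libraries in the fit. Tenomodulin, tnmd, a marker of tendon cells, had 77, 86.9 and 91.3 CPM at 14 day, against 43.4, 43.6 and 42.2 CPM at 9 day (log2 0.98 ± 0.11, edgeR adjusted p = 0.000109). The matrix genes cilp2, prelp and aspn rose by 1.63, 1.63 and 1.48 on the log2 scale. The tendon regulators scxa and scxb did not pass (0.52 ± 0.22 and 0.53 ± 0.31, edgeR adjusted p = 0.137 and 0.278).

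**Figure D3:**
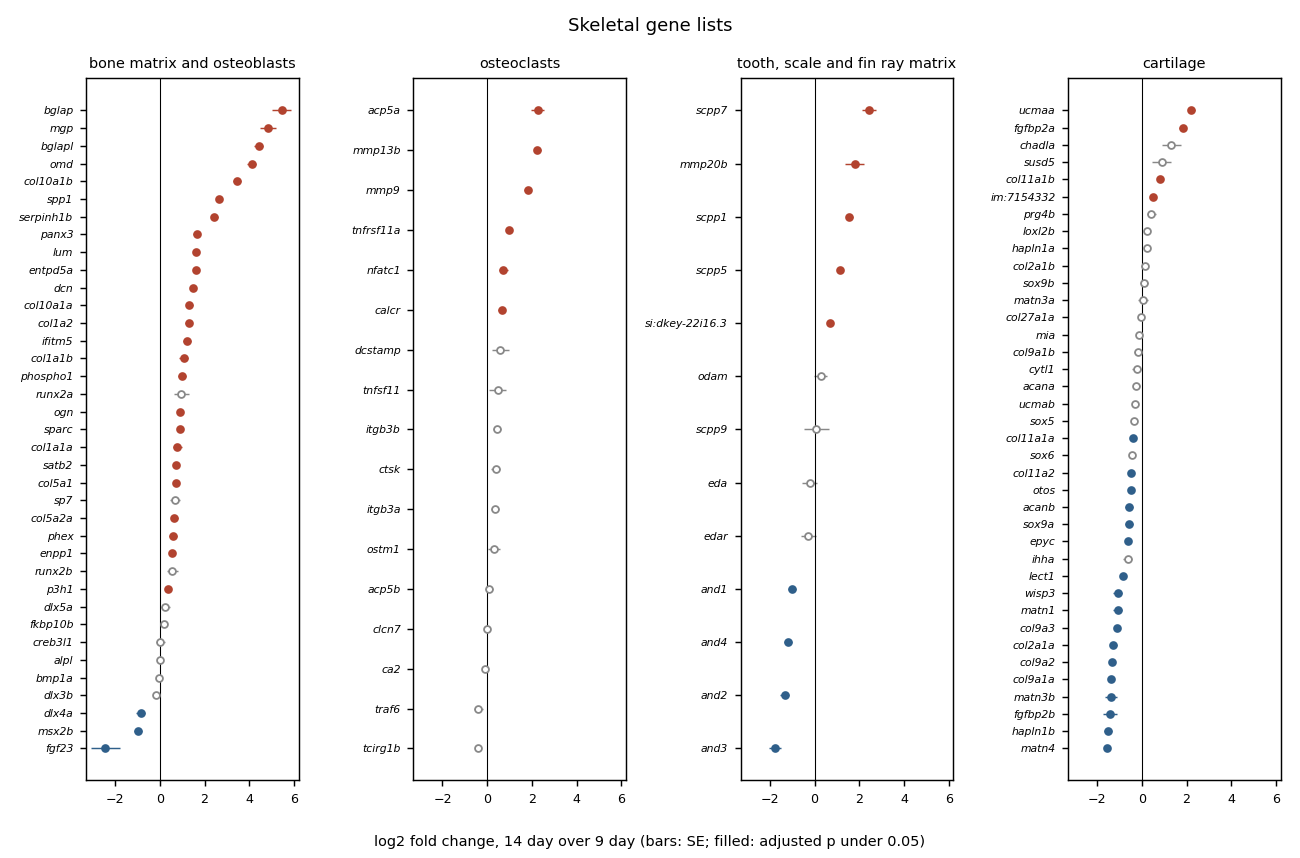
Log2 fold change of 14 day over 9 day with its standard error for every tested gene of 4 skeletal lists; filled points passed (red higher, blue lower) and open points did not. Bone and osteoclast genes lie mostly to the right, cartilage genes mostly to the left, and the actinodins and1 to and4 stand apart from the scpp genes.

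Of 16 genes of the thymus and of receptor recombination, 7 rose and none fell (4 fell with library size only), with a median of 0.40. The count pools both kinds of gene, and ccl25b, ccr9a and ccr9b, described below, are among the 7. The recombinase gene rag1 had 62.1, 42.1 and 41 CPM at 14 day, against 14, 16.4 and 9.7 CPM at 9 day (log2 1.85 ± 0.22, edgeR adjusted p = 0.000478). Its partner rag2 had 10.4, 8.39 and 8.96 CPM at 14 day, against 5.05, 7.23 and 6.63 CPM at 9 day, and did not pass (0.55 ± 0.19, edgeR adjusted p = 0.0704). For rag1 the groups were far apart, and for rag2 they did not overlap but lay close together. The polymerase gene dntt, which adds bases at the joins, had 4 counts over the 14 day group and 1 over the 9 day group, a 4.49-fold ratio with a counting interval of 0.445 to 221.

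Genes that draw cells to the thymus were higher at 14 day too. The thymic chemokine gene ccl25b had 73.2, 95.8 and 113 CPM at 14 day, against 33.6, 30 and 27.9 CPM at 9 day (log2 1.62 ± 0.16, edgeR adjusted p = 4.69e-05). The receptors of this chemokine, ccr9a and ccr9b, rose by 1.12 ± 0.19 and 1.76 ± 0.21. The thymic epithelial regulator foxn1 had 5.52, 8.26 and 8.51 CPM at 14 day, against 3.53, 3.43 and 3.07 CPM at 9 day (1.15 ± 0.23, edgeR adjusted p = 0.00532). All 14 day values of these genes were above all 9 day values. The interleukin 7 receptor gene il7r and the chemokine receptor gene cxcr4b rose by 1.22 ± 0.21 and 1.37 ± 0.19.

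Of 22 T cell genes, 9 rose and 2 fell, with a median of 0.60. The number that rose ran from 6 to 10 without one library, and the median from 0.39 to 0.69. With library size only 8 rose and the median was 0.38. The kinase gene lck of the T cell receptor pathway had 10.8, 7.4 and 6.77 CPM at 14 day, against 2.86, 3.16 and 2.02 CPM at 9 day (log2 1.63 ± 0.26, edgeR adjusted p = 0.00127). The coreceptor gene cd4-1 had 4.24, 4.69 and 2.93 CPM at 14 day, against 0.477, 0.361 and 0.864 CPM at 9 day (2.77 ± 0.39, edgeR adjusted p = 0.000532). The other coreceptor gene, cd8a, had 47 counts over the 14 day group and 1 over the 9 day group, a 52.8-fold ratio with a counting interval of 9.02 to 2130. None of these genes overlapped between the ages. The kinase gene zap70 rose by 1.44 ± 0.30, and the falls were the transcription factors gata3 and tox (-0.72 ± 0.13 and -0.59 ± 0.13). Any of these genes, rising or falling, may be used by other tissues too.

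B cell genes showed no common direction. Of 16 tested, 1 rose and 3 fell, with a median of 0.01, or -0.21 with library size only, and 1 fell without replicate 2 of 14 day or replicate 1 of 9 day. The signaling chain of the B cell receptor, cd79a, had 19.7, 29.7 and 39.5 CPM at 14 day, against 13.2, 12.2 and 13.5 CPM at 9 day (log2 1.19 ± 0.22, edgeR adjusted p = 0.00558). Replicate 1 was the lowest of 14 day but stayed above 9 day. The B cell factor pax5 did not pass (-0.78 ± 0.38, edgeR adjusted p = 0.19). The immunoglobulin genes matched here, ighd and igic1s1, averaged at most 0.329 CPM and were not tested.

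Of 28 antigen presentation genes, 9 rose and 1 fell (4 with library size only, and 0 without replicate 2 of 14 day or replicate 1 or 3 of 9 day), with a median of 0.33. The invariant chain gene cd74a, partner of class II molecules, had 61.3, 73.9 and 73 CPM at 14 day, against 11.8, 10.7 and 8.55 CPM at 9 day (log2 2.74 ± 0.15, edgeR adjusted p = 6.23e-07). Its paralog cd74b rose by 1.99 ± 0.18 and the class II gene mhc2dab by 1.85 ± 0.28. The gene b2m, the light chain of class I, had 72.1, 81.6 and 50.1 CPM at 14 day, against 29.2, 21.2 and 17.2 CPM at 9 day (1.59 ± 0.23, edgeR adjusted p = 0.00207). These groups did not overlap either. Genes of the immune proteasome such as psmb8a and psmb9a did not pass (-0.37 ± 0.28 and 0.27 ± 0.36, edgeR adjusted p = 0.416 and 0.674). The major histocompatibility genes have near-identical copies that differ between fish, so single genes of that family are uncertain.

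Over the stages, rag1 averaged 0.869 CPM at 2 day, 5.5 at 5 day, 13.4 at 9 day and 47.8 at 14 day. The gene cd74a averaged 0.0401, 1.86, 10.4 and 68.7 CPM at the same 4 stages, and lck averaged 0.0424, 1.05, 2.69 and 8.24 CPM. Each of these genes had its highest level of the 6 stages at 14 day.

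Innate immune and cytotoxic lymphocyte genes were described from further lists. Of 22 interferon response genes, 4 rose and none fell (median 0.33, and 0.11 with library size only). Without replicate 2 of 14 day 1 of them fell and the median was 0.07. Without replicate 2 of 9 day 2 rose, and 9 rose with all 36 libraries in the fit. Of 41 neutrophil and macrophage genes, 12 rose and 2 fell (median 0.31; 1 fell without replicate 2 or 3 of 14 day or replicate 1 or 2 of 9 day), and of 10 genes of cytotoxic lymphocytes 1 rose (2 without replicate 2 of 14 day and 3 without replicate 1 of 9 day). The complement starter genes c1qa and c1qb of macrophages rose by 1.64 ± 0.32 and 1.96 ± 0.33. The granulin gene grn2 fell by 2.06 ± 0.29. Among 30 complement and acute phase genes, 5 rose and 2 fell (median 0.04, and -0.17 with library size only). Without replicate 1 of 14 day 6 of them fell, without replicate 3 of 14 day 1 fell, and without replicate 2 or 3 of 9 day 3 rose. The factor D gene cfd had 276, 323 and 317 CPM at 14 day, against 104, 88.8 and 105 CPM at 9 day (log2 1.62 ± 0.13), and the central complement gene c3a.2 had 70.3, 62.5 and 45.4 CPM, against 230, 156 and 309 CPM (-1.96 ± 0.27, edgeR adjusted p = 0.0024). The groups of both genes lay apart, in opposite directions.

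**Figure D4:**
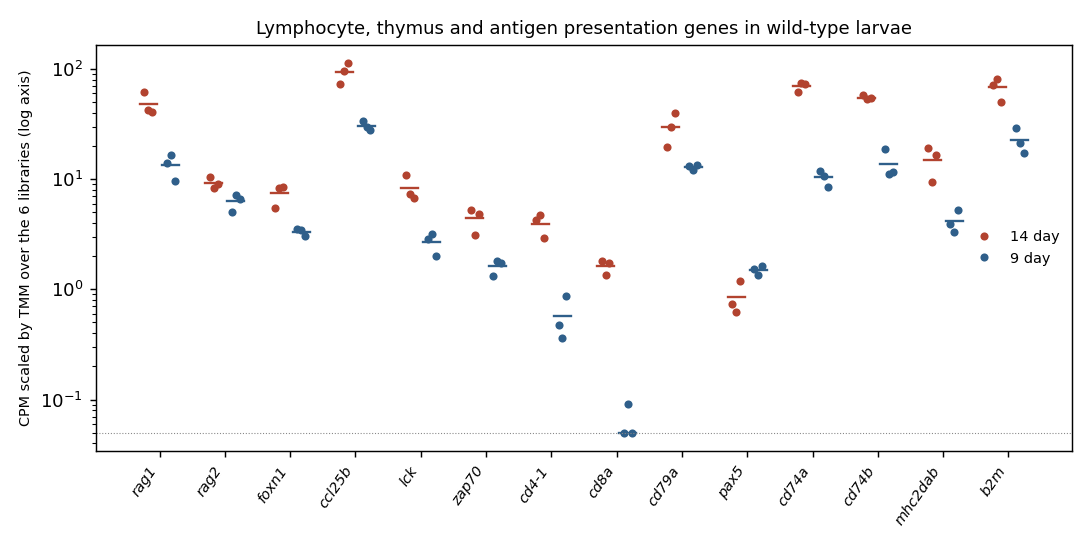
Level in each library, in CPM on a log axis, of genes of receptor recombination, thymus, T cells, B cells and antigen presentation, at 14 day (red, left) and 9 day (blue, right), with bars at the group means; the dotted line marks where 0 is drawn. Every 14 day library lies above every 9 day library for each gene but pax5, whose 14 day libraries lie below.

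Fast muscle genes rose as a group. Of 40 tested, 33 rose and 2 fell, with a median of 0.85, and 1 fell without any single library other than replicate 1 of 14 day. The fast myosin heavy chain gene myha had 939, 625 and 734 CPM at 14 day, against 14.3, 11.9 and 12.1 CPM at 9 day (log2 5.90 ± 0.20, edgeR adjusted p = 1.9e-08). The fast troponin I gene tnni2a.3 had 512, 289 and 548 CPM at 14 day, against 10.4, 6.69 and 8.55 CPM at 9 day (5.72 ± 0.30, edgeR adjusted p = 9.44e-06). Both genes were scarce in all 9 day libraries and abundant in all 14 day libraries. The myosin light chain gene mylpfa had 18400, 23200 and 24300 CPM at 14 day, against 10600, 9330 and 9080 CPM at 9 day (1.18 ± 0.18). The fast troponin T gene tnnt3a fell by 0.91 ± 0.17, while its paralog tnnt3b rose by 1.16 ± 0.16.

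Of 20 slow muscle genes, 8 rose and none fell (median 0.34; 2 fell with library size only), led by the slow myosin gene smyhc2 with 386, 323 and 397 CPM at 14 day, against 96.3, 62.6 and 96.9 CPM at 9 day (log2 2.11 ± 0.18). The growth inhibitor of muscle, mstnb, rose by 1.43 ± 0.17. The alpha actin gene actc1a, from the heart list, fell by 1.4 ± 0.16. Of the 18 heart genes tested, 3 rose and 2 fell, with a median of 0.26, and 0.04 with library size only. Without one library 2 to 5 rose and 1 to 2 fell. Myosin genes lie in arrays of near-identical copies, so the split between single copies is uncertain.

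Some lens genes were among the largest rises. The gamma crystallin gene crygm2a had 50.8, 62.2 and 79 CPM at 14 day, against 0.191, 0.181 and 0.192 CPM at 9 day (log2 8.32 ± 0.29, edgeR adjusted p = 1.9e-08). Its relatives crygm2c, crygm1, crygm7 and crygm2b rose by 5.66, 5.68, 5.37 and 5.27 on the log2 scale, and crygm6 was at least 28.1-fold higher, with 75 counts at 14 day and 0 at 9 day (floor of 3 counts over the group). Of 40 genes in the lens list, which does not hold crygm2a, crygm2b, crygm2c or crygm7, 8 rose and 1 fell, with a median of 0.17, and -0.05 with library size only (2 fell without replicate 1 or 3 of 14 day or replicate 1 of 9 day). The chaperone crystallin gene cryaa had 20.3, 10.2 and 12.1 CPM at 14 day, against 5.72, 17 and 11.8 CPM at 9 day, with overlap. Members of this family are near-identical, and levels of single copies are uncertain.

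Of 9 visual opsins 1 rose and 2 fell (4 without replicate 1 of 14 day), of 17 rod genes 3 rose and 1 fell (5 rose without replicate 2 of 14 day and 6 with all 36 libraries in the fit), and of 21 cone genes 3 rose and none fell (2 fell without replicate 1 of 14 day or with DESeq2, and 1 without replicate 1 of 9 day or with library size only). The green opsin gene opn1mw3 had 3.18, 2.96 and 3.93 CPM at 14 day, against 0.191, 0.0904 and 0.384 CPM at 9 day (log2 3.87 ± 0.45). The green opsin gene opn1mw1 and the red opsin gene opn1lw2 fell by 0.84 ± 0.13 and 1.07 ± 0.13, while the rod opsin gene rho overlapped between the ages (-0.29 ± 0.45, edgeR adjusted p = 0.728), and passed as lower without replicate 1 of 14 day (-0.92, edgeR adjusted p = 0.014). The opsins of one color are neighbours of similar sequence. In myelin and glia, 8 of 30 genes rose and 1 fell (median 0.19, and -0.03 with library size only; 2 fell without replicate 1 of 14 day, and 0 without replicate 2 or 3 of either age), with the myelin genes mpz, plp1b and mbpa at 2.22 ± 0.20, 1.93 ± 0.13 and 1.91 ± 0.12.

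Genes of cell division were lower at 14 day. Of 35 tested, 28 fell and none rose, with a median of -0.80. The mitotic kinase gene plk1 had 15.2, 14.8 and 14.8 CPM at 14 day, against 43.2, 39.1 and 44.5 CPM at 9 day (log2 -1.50 ± 0.12, edgeR adjusted p = 1.12e-05). The kinase gene aurka and the cyclin gene ccnb1 fell by 1.6 ± 0.18 and 1.49 ± 0.17. The proliferation marker mki67 had 99.9, 87.4 and 76.2 CPM at 14 day, against 128, 139 and 160 CPM at 9 day (-0.70 ± 0.13, edgeR adjusted p = 0.00385). The replication clamp gene pcna did not pass (-0.31 ± 0.11, edgeR adjusted p = 0.0885). No library of 14 day reached the 9 day range for any of plk1, aurka, ccnb1 or mki67.

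Of 44 proteasome genes, 24 fell and none rose, with a median of -0.41. These genes code for the complex that degrades marked proteins, and the subunit genes psmd3 and psmb5 fell by 0.95 ± 0.16 and 0.72 ± 0.11. Of 25 cholesterol synthesis genes, 19 fell and none rose, with a median of -0.67. The squalene synthase gene fdft1 had 12.6, 9.25 and 6.04 CPM at 14 day, against 23.4, 33.2 and 24 CPM at 9 day (log2 -1.54 ± 0.25, edgeR adjusted p = 0.00294), with no overlap. The count of 19 was 9 and 10 without replicates 2 and 3 of 14 day, and 6 and 4 without replicates 2 and 3 of 9 day.

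Several genes of metabolism and growth rose. The lipid droplet gene plin2 had 48.9, 40.8 and 41.7 CPM at 14 day, against 6, 7.23 and 8.07 CPM at 9 day (log2 2.62 ± 0.15, edgeR adjusted p = 9.83e-07), and in its list of lipid synthesis and storage 10 of 28 rose and 3 fell (5 with library size only). The growth factor gene igf1 had 6.26, 7.03 and 8.14 CPM at 14 day, against 2.29, 2.8 and 2.02 CPM at 9 day (1.59 ± 0.23, edgeR adjusted p = 0.000717). Every 14 day library was above every 9 day library for both genes. Of 26 pituitary, thyroid and growth hormone genes 11 rose and none fell (7 rose without replicate 3 of 14 day, without replicate 2 or 3 of 9 day, or with library size only, and 1 fell without replicate 1 of 14 day and 2 with library size only). The growth hormone gene gh1 had 8.81, 9.37 and 11.7 CPM at 14 day, against 5.91, 7.05 and 7.49 CPM at 9 day, and did not pass (edgeR adjusted p = 0.0615, and 0.0456 without replicate 1 of 14 day). The thyroid gene tg did not pass, but passed as lower without replicate 1 of 14 day (-0.85, edgeR adjusted p = 0.0309). The gene dio2 passed as higher, but not with library size only (edgeR adjusted p = 0.0738). Nor did it pass without replicate 1 or 3 of 14 day or replicate 2 or 3 of 9 day.

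Of 30 liver plasma protein genes, 10 rose and 1 fell (median 0.40), and 6 rose and 2 fell without replicate 2 of 9 day. The fetuin gene ahsg2, a carrier of calcium phosphate in plasma, had 562, 816 and 629 CPM at 14 day, against 238, 212 and 192 CPM at 9 day (log2 1.64 ± 0.16). The retinol carrier rbp4 rose by 1.2 ± 0.17. Of 40 intestine genes, 6 rose and 2 fell (10 rose without replicate 2 of 14 day and 12 with all 36 libraries in the fit). The number that fell was 8 without replicate 1 of 14 day, 1 without any other single library except replicate 2 of 9 day, 4 with DESeq2, 6 with library size only and 7 with all 36 libraries in the fit. The fatty acid binding gene fabp2 rose by 1.59 ± 0.18. The chitinase gene chia.6 fell by 1.72 on the log2 scale, while chia.3 and chia.4 of the same list rose by 2.51 and 2.01. Of 27 enzymes of the exocrine pancreas, 7 rose and 3 fell, with a median of 0.04 (5 fell, with a median of -0.18, with library size only). Without replicate 2 or 3 of 9 day 4 of them rose, and 1 fell without replicate 1 or 2 of either age. The lipase gene cel.1 rose by 1.22 ± 0.23.

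Stress, daily clock and early response genes moved with the ages as well. Of 43 heat shock and endoplasmic reticulum stress genes 28 rose and none fell, with a median of 0.69. The chaperone gene hsp70l had 20.7, 18.3 and 13.2 CPM at 14 day, against 1.52, 0.904 and 0.864 CPM at 9 day (log2 3.97 ± 0.27), and hsp90aa1.2 had 231, 204 and 147 CPM, against 31.4, 41.5 and 30.5 CPM (2.49 ± 0.19). Both were higher in every 14 day library. Of 37 clock genes 9 rose and 15 fell. The clock repressor gene cry1ba, its activator gene npas2 and the output gene nfil3-6 rose by 2.04, 1.73 and 1.89, and cry2 and tefa fell by 1.05 and 0.73 on the log2 scale. Of 30 immediate early genes 11 rose and 1 fell (7 rose without replicate 2 or 3 of either age or with library size only, 5 rose with all 36 libraries in the fit, and none fell in that fit or without any single library other than replicate 3 of 9 day), with socs3a at 1.76 ± 0.21. The labels give no hour of collection, and the part of handling or hour in any result above was not tested.

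Among the largest falls outside the globins, the enzyme gene eevs, whose product makes a precursor of the sunscreen compound gadusol in fish, had 16.1, 15 and 12.6 CPM at 14 day, against 115, 125 and 146 CPM at 9 day (log2 -3.14 ± 0.14, edgeR adjusted p = 2.02e-07). The epithelial transcription factor gene elf3 had 7, 10.2 and 8.69 CPM at 14 day, against 70.6, 50.7 and 63.5 CPM at 9 day (-2.84 ± 0.17, edgeR adjusted p = 1.48e-06). Both genes were lower in every 14 day library, which the rule for the largest changes required. The notochord sheath gene cmn had a log2 fold change of -4.42 ± 0.44 and the angiotensin-converting enzyme gene ace one of -3.03 ± 0.39. The intelectin genes itln3 and intl2, which bind microbial sugars, had -3.42 ± 0.51 and -3.77 ± 0.69. The gene intl2 did not pass without replicate 1 of 9 day (edgeR adjusted p = 0.0676). Other large rises were the inner ear matrix gene coch (3.24 ± 0.16), the elongation factor paralog eef1a1l2 (3.45 ± 0.16) and the epidermal keratin gene krt15 (2.26 ± 0.15). The list of epidermal keratins and annexins held both directions. Of 35 tested, 8 rose and 6 fell, with a median of 0.05, and -0.17 with library size only. Without one library 8 to 11 rose and 3 to 7 fell.

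**Figure D5:**
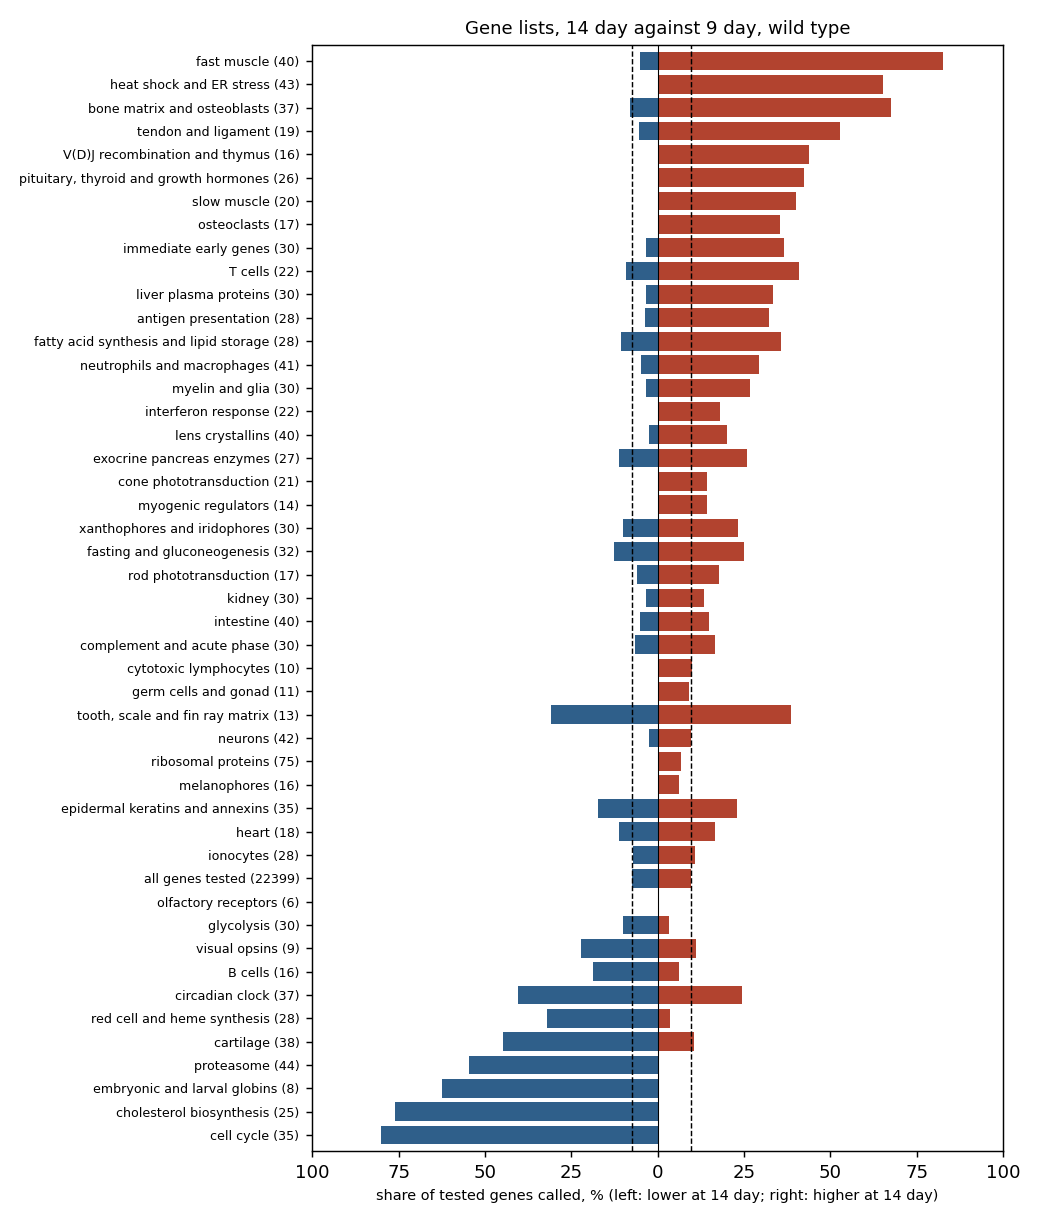
Share of the tested genes of each list (number tested in brackets) that passed as higher (red, to the right) or lower (blue, to the left) at 14 day, in %, for lists with at least 5 tested genes, with dashed lines at 9.51 and 7.54%, the shares over all genes. Of the lists drawn, fast muscle, bone and heat shock reach farthest to the right, cell cycle and cholesterol biosynthesis farthest to the left.

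The same step was also measured in separate libraries of kctd15 mutants, where 4398 of 21967 genes (20%) passed. Of 3718 genes called in wild type and tested in mutants, 94.1% had the same sign there, 2090 were called the same way and 17 the opposite way. The share of the same sign over all genes is not given here, so 94.1% stands without its background. The shared calls were 56.2% of the wild-type calls tested in mutants and 47.5% of the mutant calls. The test of the difference between the genotypes passed for 108 of 23049 genes (0.469%). For the bone genes bglapl and omd the mutant log2 fold changes were 3.66 and 3.59. They were 3.1 for cd74a, -0.91 for col2a1a and -1.50 for plk1. Other named genes were less alike. Osteocalcin, bglap, had 2.99 in mutants and 5.44 in wild type, and that difference did not pass (edgeR adjusted p = 0.215). The genes ccr9a, c1qa and c1qb passed in wild type but not in mutants (edgeR adjusted p = 0.141, 0.0584 and 0.138 there). Some lists looked less alike in their counts of calls or their medians. In mutants 2 of 29 immediate early genes rose (11 of 30 in wild type), and 15 of 42 heat shock genes (28 of 43). The immediate early median was not smaller in mutants, at 0.52 against 0.37 in wild type. The heat shock median was 0.36 in mutants and 0.69 in wild type. Of 15 B cell genes 4 rose and 1 fell in mutants, and the clock median was 0.12, against -0.29 in wild type. In other lists more genes rose in mutants. Of 27 enzymes of the exocrine pancreas 18 rose and 0 fell there (7 and 3 in wild type), with a median of 0.64 against 0.04. Of 32 fasting and gluconeogenesis genes 17 rose and 1 fell (8 and 4 in wild type). Of 35 epidermal keratins and annexins 16 rose and 3 fell (8 and 6 in wild type). Differences between the genotypes in these lists were not tested.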

How the data were processed

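The deposited gene table holds estimated counts per gene for all 36 libraries. TRIzol extraction and a directional mRNA kit are stated per the labels. Trimmomatic 0.36, kallisto 0.43.0, edgeR and the zebrafish build GRCz10 are named in the submitters' processing notes, without their roles. The authors' estimated counts were rounded to whole numbers. Such estimates divide reads among similar transcripts, so single members of near-identical families are uncertain. No value column was left unmapped (0 columns).

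Genes were kept with filterByExpr, scaled with TMM and tested with the robust quasi-likelihood test of edgeR 4.0.16 (R 4.3.3) on the 6 wild-type libraries, with Benjamini-Hochberg adjustment over all tested genes and a threshold of 0.05. The same was done for kctd15 mutants, and the difference between genotypes was an interaction term over 12 libraries. Standard errors are the log2 fold change divided by the square root of F. CPM were scaled with TMM, and floors are 3 counts over a group. The script was tested on simulated data. Alternatives used RLE factors, library size only, no filter, a mean of at least 1 CPM, DESeq2 1.42.0, all 36 libraries in 1 fit, a replicate block, and leaving out each library. Depth of 8868967 to 11962139 counts per library limits genes below about 1 CPM. Counting intervals are 95% and cover counting error only.

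Of 1337 symbols written for 48 gene lists, 1187 matched by symbol and 71 by synonym, and 334 more genes matched by name patterns. The genes to describe and the lists were chosen with earlier results of these data known. Named genes were all globins, up to 6 called genes of smallest p per list and a fixed set of markers. The 15 largest changes, all without overlap between the groups, and the 10 smallest p per direction were added. Outside that rule and after their values were seen, and3, col1a1b, col1a2, col2a1b, col11a1b, entpd5a, msx2b, scxa, scxb, tnnt3a, tnnt3b, tox, psmb8a, psmb9a, pcna, ighd and igic1s1 were named as members of lists. Neighbouring genes come from a RefSeq table of another build, so no coordinates are given. The symbols of 15 genes had become dates in the deposited file and were left as they are.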

Additional observations from a re-analysis of the deposited data

Results flagged for a closer look

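For 11 of the genes named by the rule, the change between 9 and 14 day differed between kctd15 mutants and wild type by the interaction test of edgeR. Values below are the mutant log2 fold change minus the wild-type one. Over all genes 108 of 23049 (0.469%) passed this test. Most genes of the rule were named by p-value or size of change in wild type, and that change enters the difference. Genes that changed more in mutants were therefore less likely to be listed, and each difference below had the sign opposite to the wild-type change.

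The collagen chaperone gene serpinh1b differed by -2.55 (edgeR adjusted p = 4.97e-06), with -0.13 in mutants and 2.43 in wild type. The heat shock gene dnajb1b differed by -1.92 (edgeR adjusted p = 0.0166), with -0.24 in mutants and 1.69 in wild type. The chaperone gene hsp90aa1.2 differed by -1.08 (edgeR adjusted p = 0.0496), with 1.41 in mutants and 2.49 in wild type. All 3 are in the heat shock list, and the hour and handling of the animals are not in the labels, so their part was not tested.

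The transcription factor genes bcl6ab and bcl6a differed by 1.52 and 1.28 (edgeR adjusted p = 0.00222 and 0.0176). The gene bcl6ab changed by 0.51 in mutants and -1 in wild type, and bcl6a by 0.6 in mutants and -0.67 in wild type. The wild-type change of bcl6a did not pass without replicate 2 or 3 of 14 day or replicate 1 or 2 of 9 day (edgeR adjusted p = 0.0696, 0.0634, 0.0775 and 0.0513). The fast myosin gene myha differed by -1.66 (edgeR adjusted p = 0.018) and rose in both, by 4.24 in mutants and 5.9 in wild type. The complement factor D gene cfd differed by -1.01 (edgeR adjusted p = 0.036), with 0.6 in mutants and 1.62 in wild type.

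The chitinase gene chia.6 differed by 1.3 (edgeR adjusted p = 0.00549), with -0.43 in mutants and -1.72 in wild type. The tryptophan dioxygenase gene tdo2a differed by 0.81 (edgeR adjusted p = 0.0456), with 0.06 in mutants and -0.74 in wild type. The gene zgc:112320 differed by 2.42 (edgeR adjusted p = 0.00286), with 1.26 in mutants and -1.16 in wild type. The gene lonrf1l differed by 0.79 (edgeR adjusted p = 0.0268), with -1.5 in mutants and -2.27 in wild type.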

How the results depend on the processing

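Of 258 named genes called in wild type, 221 stayed called without each of the 6 libraries, and none changed direction under any alternative. Most of the 258 were named by p-value or size of change in this same fit, so their share does not stand for all called genes. Without one library, 233 to 246 of the 258 stayed called. With library size only 236 did, with all 36 libraries in the fit 249, with DESeq2 253 and with RLE factors all 258. The wild-type count of 3820 ranged from 2496 to 4146 without one library (2496 without replicate 3 of 14 day), that of genes higher from 1402 to 2330 (1402 without replicate 2 of 9 day) and that of genes lower from 1031 to 1816 (1070, 1031 and 1106 without replicates 2 and 3 of 14 day and replicate 3 of 9 day). With library size only the totals were 5984 in wild type (1367 higher, 4617 lower) and 1386 higher and 4747 lower in mutants. The mutant count of 4398 ranged from 2605 to 3793 without one library (2605 and 2895 without replicates 1 and 2 of 9 day), with 1467 to 2065 higher and 1138 to 1728 lower. The count of 108 genes for the genotype difference ranged from 52 to 106 (43 to 82 higher and 9 to 31 lower), was lowest without wild-type replicate 3 of 9 day, and was 286 with DESeq2 (196 higher, 90 lower) and 255 with all 36 libraries (178 higher, 77 lower). The cause of these shifts was not tested. The difference in adult globin share, 29.2 percentage points, ran from 24.4 to 37 without one library.

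Samples with the same replicate number showed little shared deviation (r = -0.17, -0.03 and 0.01 in wild type, and 0.01, 0.09 and 0.09 in mutants). With 3 samples per age, these values cannot decide whether same-numbered samples share a clutch or a batch. With the replicate block 2910 genes passed in wild type (1624 higher, 1286 lower) and 243 of the 258 named genes stayed called. Under it 10 of the cholesterol synthesis genes fell. The mutant count with the block was 5002 and the genotype difference 93. Only 6 libraries, with 3 in each group, set the precision, and genes at or below about 1 CPM could be tested only for large changes.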

Other observations

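Over all genes in the main fit, 9.51% were higher and 7.54% lower. Some lists not described above held larger shares. Of 32 fasting and gluconeogenesis genes 8 rose and 4 fell (4 to 10 and 1 to 4 without one library). Of 30 xanthophore and iridophore genes 7 rose and 3 fell (5 to 8 and 2 to 4 without one library). Neuronal, melanophore and ribosomal protein genes held shares near or below those of all genes. Of 42 neuronal genes 4 rose and 1 fell, with a median of -0.02 (without replicate 1 of 14 day 2 rose and 11 fell, without replicate 3 of 14 day 2 rose and 0 fell, without replicate 1 of 9 day 2 rose and 2 fell, without replicate 3 of 9 day 2 rose, and without replicate 2 of either age 0 fell). Of 16 melanophore genes 1 rose (5 without replicate 1 of 14 day, 4 with all 36 libraries in the fit, and 0 without replicate 3 of 14 day or any 9 day library). Of 75 ribosomal protein genes 5 rose, which became 33 without replicate 1 of 14 day, 9 without replicate 1 of 9 day and 0 without each of the other libraries. The ribosomal count was 16 with DESeq2 and 29 with all 36 libraries in the fit. None of the 7 vitellogenin genes, which code for yolk precursors of mature females, passed the filter on low counts. Of 215 olfactory receptor genes 6 passed that filter and none changed.

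In 1 somite embryos the adult share of globin counts was 21.9, 15.6 and 25.9%, but these rest on 7, 7 and 14 adult counts among 32, 45 and 54 globin counts.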
